A study of Homo sapiens with 6 samples.

Results

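The 62 genes described here are the integrin, cadherin and protocadherin genes measured in HT1080 cells, a human fibrosarcoma line. Rows of the table of expected counts were chosen by name, as ITGA or ITGB genes, CDH genes followed by a number, and PCDH genes, leaving out hyphenated names and pseudogenes numbered after a P. Of 60675 rows, 117 had such a name, and the 62 with a total of at least 60 counts over the 6 libraries were kept. The total chose the members and is no finding. The 3 totals just inside the minimum were 68 for PCDH17, 71.6 for PCDH11X and 73.0 for PCDHGB8P, and the 3 just outside were 57.1 for PCDHB10, 54 for PCDHB6 and 52.0 for PCDHB2. The members comprised 11 of 14 integrin alpha names, 6 of 8 integrin beta names, 9 of 23 cadherins and 9 of 13 non-clustered protocadherins. The protocadherin clusters gave 1 of 16 alpha, 3 of 19 beta and 23 of 24 gamma names. PCDHGB8P is annotated as a transcribed unitary pseudogene.

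The series asked how selective inhibitors of KDAC6 (HDAC6), a cytoplasmic lysine deacetylase, are in these cells. In 3 libraries the wild-type HT1080 cells had received SW-138, and in the other 3 SW-113, each at 1 µM for 48 h. Both groups grew in MEM with fetal bovine serum and penicillin/streptomycin, and their total RNA was depleted of ribosomal RNA before sequencing. No vehicle group is among the labels used here, so a gene higher with SW-138 can as well be one lower with SW-113. Nor do the labels say whether a compound's 3 libraries stem from separate cultures; the p-values then reflect only how these libraries spread, which may be technical. The cells are 1 line, and in such bulk samples fewer cells of a type and less RNA per cell cannot be told apart.

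Integrins are receptors for extracellular matrix and for other cells, each made of 1 alpha and 1 beta chain. The alpha chain largely sets what is bound: collagen, laminin, or ligands with an RGD sequence such as fibronectin and vitronectin. Most alpha chains of matrix receptors pair with beta 1, whereas alpha V pairs with several beta chains. Cadherins bind like cadherins on a neighbouring cell in the presence of calcium and link to actin through catenins. Clustered protocadherins are read from tandem first exons, each with its own promoter, and in neurons the choice of exon gives each cell a surface identity. Fibrosarcoma cells, like fibroblasts, typically use N-cadherin in place of the E-cadherin of epithelia.

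Totals were 40527236, 32771670 and 36661221 counts in SW-138 libraries and 39249722, 50871623 and 41654743 in SW-113 libraries. Replicate 2 of SW-138 stood somewhat apart: its Pearson correlation with the other SW-138 libraries was 0.995 and 0.996 over log-scaled values of the tested genes, against 0.998 between those libraries and 0.998 for all SW-113 pairs. Of 24 members with at least 5 CPM (counts scaled to a common library total of 1e6, with TMM factors) in both compounds, 22 had their lowest SW-138 value in replicate 2 and 19 their lowest SW-113 value in replicate 2. The part of this in the results was not tested. Values without that library are given beside the members whose call it changes. All 10 listed mesenchymal markers were detected, 9 of them at 1 CPM or more, and summed to between 7678 and 8460 CPM with SW-138, against 7302 to 8186 CPM with SW-113. Of 12 epithelial markers, 11 averaged under 1 CPM and KRT5 and KRT14 were at 0 in all 6 libraries; the list summed to 3.31 to 3.98 CPM in SW-138 libraries and 2.73 to 3.83 CPM in SW-113 libraries. The blood marker PTPRC was near 0 in both groups.

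Integrins dominated the set (the plot of integrin levels by library). Per kilobase of the longest annotated transcript, ITGB1 had the highest level of all members at 568 CPM per kilobase over the 6 libraries, followed by ITGA3 at 249. Their ranges over libraries overlapped neither each other nor the next gene. ITGB5 (87.5), ITGA2 (83.1), ITGA6 (73.8), ITGA5 (51.4), PCDHGC3 (45.3), CDH13 (38.7), CDH2 (28.9) and ITGAV (28.8 CPM per kilobase) came next, and in that order each, up to CDH2, overlapped the one after it. ITGAV did not overlap ITGA4, which followed at 13.8 CPM per kilobase. The members together took 0.782, 0.642 and 0.720% of all counts with SW-138, against 0.636, 0.571 and 0.607% with SW-113, as shares of library totals without TMM factors. On the TMM scale the groups overlapped: the 17 integrins summed to 6595, 5465 and 6245 CPM with SW-138, against 5665, 5112 and 5434 CPM with SW-113, and the 45 cadherins and protocadherins to 996, 756 and 915 CPM with SW-138, against 819, 742 and 775 CPM with SW-113. In both sums replicate 2 of SW-138 lay within the SW-113 range.

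**Figure D1:**
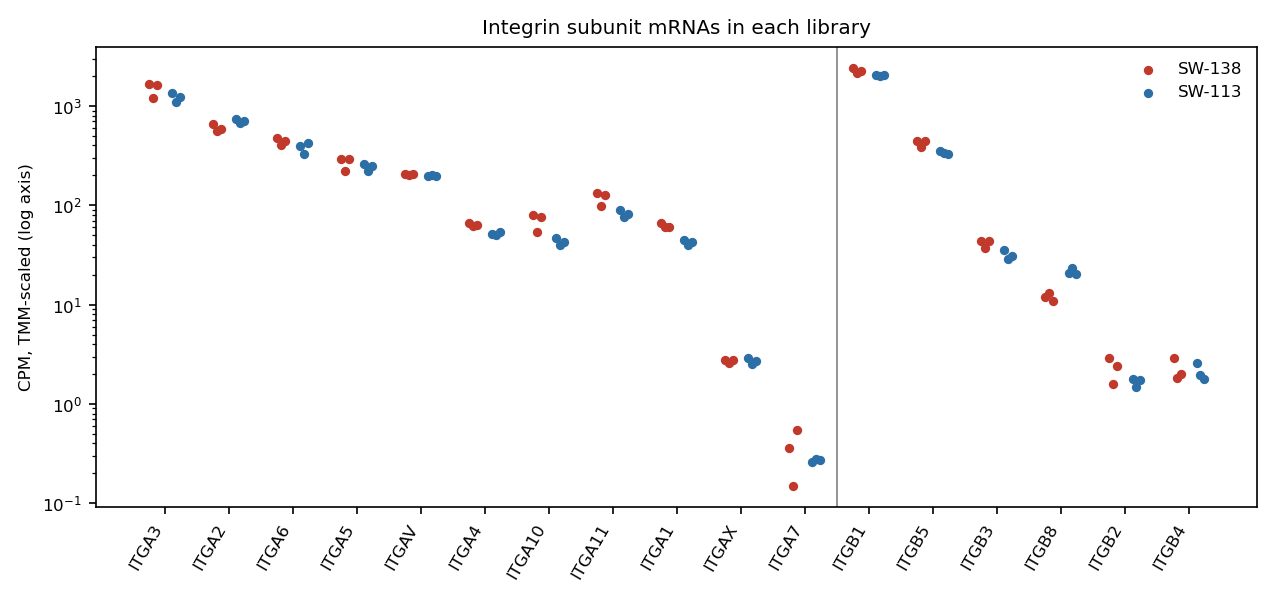
Level of each of the 17 integrin members in each library, in CPM on a log axis, with SW-138 libraries to the left of SW-113 libraries for each gene; ITGB1 is highest at 1982 to 2416 CPM, and the SW-138 points of ITGB8 lie below all its SW-113 points.

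ITGA1, ITGA4, ITGA10, ITGA11, ITGB3 and ITGB5 were higher and ITGB8 was lower with SW-138 than with SW-113. Of the 62 members these were the 6 higher and the 1 lower to pass (edgeR's quasi-likelihood test, Benjamini-Hochberg adjusted p under 0.05 over 16905 genes), and the other 55 did not. That is 11.3% of members, against 6.82% of all genes tested. Of all genes tested, 2.76% were called higher and 4.06% lower. All 7 were integrins, so 41.2% of the 17 integrins passed, and 0 of 45 cadherins and protocadherins did. These families differ in level. A mean of 5 CPM was reached by 9 integrin alpha, 4 integrin beta, 6 cadherin, 1 non-clustered protocadherin and 6 gamma cluster members. Among genes kept at that mean, 1257 of 10898 were called, and 8 of the 26 members. The share of 6.82% is thus not a like one for well-expressed genes. The part of level in the contrast between families was not tested. Among the 45 cadherins and protocadherins, 11 had an unadjusted p under 0.05, against 3773 of all 16905 genes tested. DESeq2 gave an adjusted p to 7 cadherin, 3 non-clustered, 1 alpha cluster, 0 beta cluster and 14 gamma cluster members. Of these it called 3 (CDH2, CDH4 and PCDHGC5), and limma-voom called 0 of the 45. With replicate number as a block in edgeR, CDH2, CDH4, CDH10, CDH24, PCDH1, PCDHGC3 and PCDHGC5 passed. Some of the 45 also passed under other settings given below, so their lack of calls depends on the fit. The median log2 fold change, SW-138 over SW-113, was 0.19 over the members and 0.0074 over all genes tested, with 0.30 over the integrins and 0.16 over the cadherins and protocadherins. Values of the 2 compounds did not overlap in 21 members, 17 higher and 4 lower, or 33.9%, against 27.9% of all genes tested (12.4% higher and 15.4% lower). With library totals alone as the scale, 10 members were called higher and 1 lower, and over all genes the split turned to 913 higher and 377 lower, against 466 higher and 687 lower on the TMM scale. Leaving out 1 library moved the count of members, and also that of all genes, from 7 members and 1153 genes. Without replicate 2 of SW-138, 15 members and 1616 genes were called. Without replicate 3 of SW-138 these counts were 3 and 605. They were 2 and 458 without replicate 2 of SW-113, and 3 and 303 without its replicate 3. Without replicate 1 of SW-138 or of SW-113, 7 members were called, beside 509 and 530 genes.

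**Figure D2:**
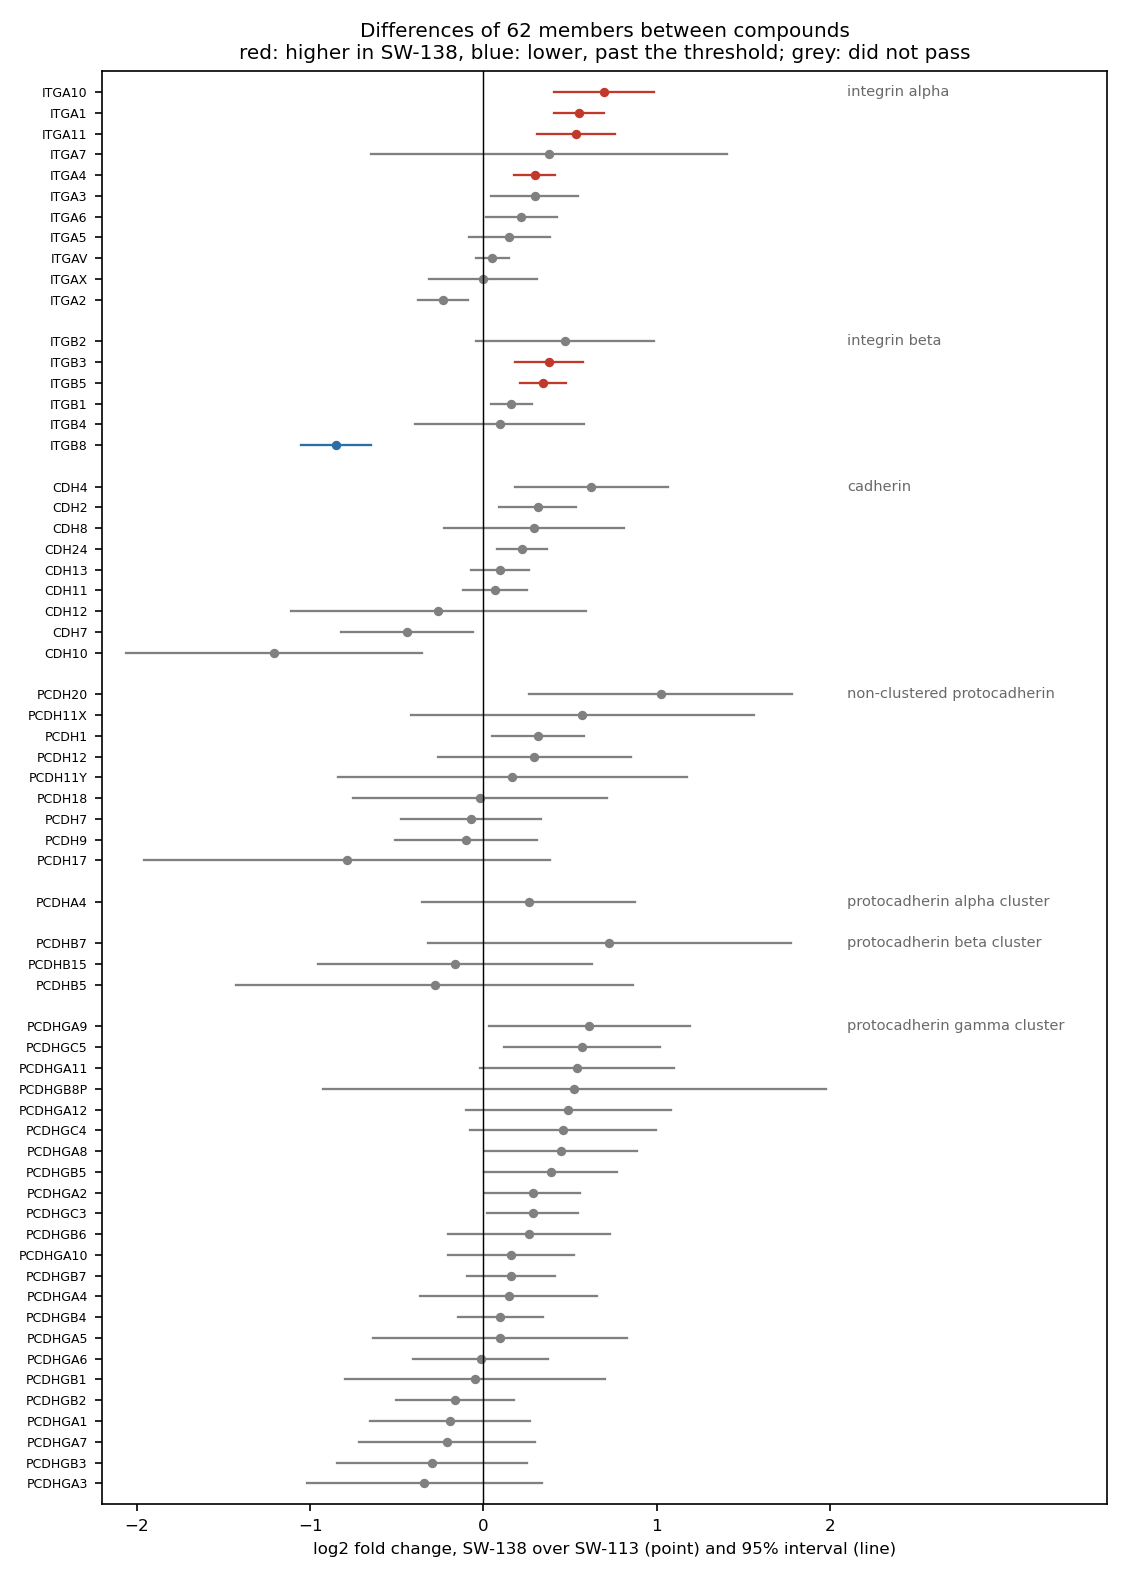
Log2 fold change of each of the 62 members, SW-138 over SW-113, with its 95% interval, grouped by family; 6 integrins are marked higher and ITGB8 lower, and every cadherin and protocadherin is grey because none passed the threshold.

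The members are long genes. Over all genes tested, the median log2 fold change went with transcript length, at -0.07, -0.02, 0.01, 0.03 and 0.05 in 5 equal groups from the shortest to the longest transcripts. The members fell in the upper 3 groups (6, 34 and 22 genes), where their own medians were 0.19, 0.28 and 0.09. The part of length in the members' values was not tested by itself; with trends on length and GC content removed, 7 members were called higher and 2 lower.

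Of the 4 collagen-binding alpha chains, 3 were higher with SW-138 and 1 did not pass. ITGA1, ITGA10 and ITGA11, the alpha chains of collagen receptors with beta 1, were higher, and ITGA2, which binds collagen with the same partner and has a higher level per kilobase than any of them, did not pass. The difference between the chains was not tested. ITGA1 (chr5:52787896-52959210, plus strand, GRCh38) had 66.7, 60.2 and 60.1 CPM with SW-138, against 45.2, 40.1 and 42.5 CPM with SW-113. The lowest SW-138 library lay well above the highest SW-113 library. The log2 fold change was 0.55 (SE 0.064, 95% interval 0.41 to 0.69, adjusted p = 0.00206 by edgeR with Benjamini-Hochberg adjustment), and it passed with any 1 library left out. ITGA10 (chr1:145891208-145910189, minus strand), known from cartilage, had 79.5, 53.3 and 76.0 CPM with SW-138, against 46.4, 40.1 and 42.6 CPM with SW-113. The groups did not overlap, although replicate 2 of SW-138 was nearer to SW-113 than the other 2 libraries were. Its log2 fold change was 0.70 (SE 0.13, interval 0.41 to 0.99, edgeR Benjamini-Hochberg adjusted p = 0.0114). ITGA11 (chr15:68296533-68432162, minus strand), known as a receptor of fibroblasts for fibrillar collagen, had 132, 99.2 and 126 CPM with SW-138, against 89.4, 75.7 and 81.8 CPM with SW-113. These groups were also apart, with replicate 2 lowest in each. ITGA11 had a log2 fold change of 0.53 (SE 0.10, interval 0.31 to 0.76, edgeR Benjamini-Hochberg adjusted p = 0.0126). Exons of genes on the opposite strand cover 1.22% of the exon bases of ITGA1, 1.93% of those of ITGA10 and none of those of ITGA11, and 3.53% of the 100-base stretches of the longest ITGA1 transcript also occur in PELO, a gene within ITGA1.

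ITGA2 (chr5:52989326-53094779, plus strand), close to ITGA1, had 659, 562 and 583 CPM with SW-138, against 740, 674 and 707 CPM with SW-113. Every SW-138 library lay below every SW-113 library, but the log2 fold change of -0.23 (SE 0.064) missed the threshold, with an edgeR Benjamini-Hochberg adjusted p of 0.0698. It passed without replicate 1 of SW-138 (log2 fold change -0.30) and with DESeq2 (adjusted p = 0.0146). In edgeR it also passed with the length and GC trends removed (adjusted p = 0.0494) and with replicate number as a block (adjusted p = 0.0053). Under the loosest filter, 1 count in any library, it passed too (edgeR adjusted p = 0.0026). Over all alternatives its adjusted p ran from 0.0026 to 0.206, and its log2 fold change stayed negative. ITGA2 made up 70.6 ± 1.77% of the summed CPM of the 4 collagen-binding chains with SW-138 and 80.8 ± 0.43% with SW-113 (SD, n = 3 each). The other 3 chains summed to 278, 213 and 262 CPM with SW-138, against 181, 156 and 167 CPM with SW-113. Each of these 3 was called higher, so their sum and the share of ITGA2 restate the values above. All 4 summed to 937, 774 and 845 CPM with SW-138, against 921, 830 and 874 CPM with SW-113, and these sums overlapped.

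The RefSeq promoter windows of the 3 chains that were higher, and of ITGB8, the integrin that was lower, are shown because these 4 genes carry the largest called differences. Each runs from 250 bases before to 50 bases after a RefSeq start site in GRCh38.p14, 5′ to 3′ on the gene's own strand. Of several windows of a gene, that at the lowest coordinate was used. These start sites differ from the gene ends printed in this text, which are 20330702 for ITGB8 and 145910189 for ITGA10. Most of the ITGB8 window thus lies inside the gene as printed. Capitals mark a motif searched for. The windows are chr5:52787666-52787965 (ITGA1, plus strand), chr1:145910001-145910300 (ITGA10, minus strand), chr15:68432114-68432413 (ITGA11, minus strand) and chr7:20330650-20330949 (ITGB8, plus strand).
ITGA1: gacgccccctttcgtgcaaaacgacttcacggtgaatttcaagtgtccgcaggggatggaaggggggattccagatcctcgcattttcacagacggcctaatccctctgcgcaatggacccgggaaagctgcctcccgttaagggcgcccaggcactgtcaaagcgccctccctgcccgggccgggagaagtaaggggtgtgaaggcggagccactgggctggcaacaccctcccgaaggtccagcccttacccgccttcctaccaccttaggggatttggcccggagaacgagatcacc
ITGA10: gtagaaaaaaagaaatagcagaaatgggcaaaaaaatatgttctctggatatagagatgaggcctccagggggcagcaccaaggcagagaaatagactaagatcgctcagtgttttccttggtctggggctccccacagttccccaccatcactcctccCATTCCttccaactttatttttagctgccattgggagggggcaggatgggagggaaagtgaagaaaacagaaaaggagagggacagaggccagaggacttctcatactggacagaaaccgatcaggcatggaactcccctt
ITGA11: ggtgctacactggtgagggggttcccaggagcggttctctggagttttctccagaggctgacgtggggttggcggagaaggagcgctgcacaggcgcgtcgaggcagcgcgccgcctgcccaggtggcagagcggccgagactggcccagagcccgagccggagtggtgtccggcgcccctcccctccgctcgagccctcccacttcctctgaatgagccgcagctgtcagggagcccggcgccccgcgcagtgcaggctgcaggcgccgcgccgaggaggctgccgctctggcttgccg
ITGB8: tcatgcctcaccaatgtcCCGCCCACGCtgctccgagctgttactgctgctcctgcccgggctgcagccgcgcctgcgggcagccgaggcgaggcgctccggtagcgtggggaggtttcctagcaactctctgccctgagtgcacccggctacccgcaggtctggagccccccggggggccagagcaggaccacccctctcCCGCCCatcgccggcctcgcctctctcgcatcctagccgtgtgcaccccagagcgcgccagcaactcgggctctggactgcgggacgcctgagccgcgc
Searched on both strands were GGGCGG (Sp and KLF proteins), TGANTCA (AP-1), GCGTGGGCG (EGR) and GGAATG (TEAD), which 45.0, 7.71, 0.795 and 14.0% of 35116 RefSeq windows of this length hold. The ITGA1 and ITGA11 windows hold none of the 4. The ITGA10 window holds GGAATG on the opposite strand, at bases 160 to 165. ITGB8 holds GGGCGG on the opposite strand at bases 19 to 24 and 202 to 207 and GCGTGGGCG at bases 20 to 28, which overlaps the first of these. Of the 11 integrin members with a window, 5, 1, 1 and 2 held the motifs in the order given. A match is a run of letters and does not show that a protein is bound.

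Among the beta chains that pair with alpha V, ITGB3 and ITGB5 were higher with SW-138 and ITGB8 was lower, while alpha V itself did not pass. ITGB8 (chr7:20330702-20415754, plus strand), whose pairing with alpha V binds latent TGF-beta, had 11.8, 13.0 and 10.9 CPM with SW-138, against 20.7, 23.4 and 20.2 CPM with SW-113. The highest SW-138 library was well under the lowest SW-113 library. Its log2 fold change was -0.85 (SE 0.091, interval -1.06 to -0.65, edgeR Benjamini-Hochberg adjusted p = 0.0013), or 0.554 times the SW-113 level, the only called fall among the members; it passed with any 1 library left out. ITGB5 (chr3:124761948-124901418, minus strand), which with alpha V forms a vitronectin receptor, had 448, 390.0 and 446 CPM with SW-138, against 350.1, 337 and 325 CPM with SW-113. The groups were apart, and the log2 fold change was 0.34 (SE 0.061, interval 0.21 to 0.48, edgeR Benjamini-Hochberg adjusted p = 0.0126). ITGB3 (chr17:47253846-47311816, plus strand), the beta chain of the vitronectin receptor alpha V beta 3, had 43.7, 37.0 and 43.5 CPM with SW-138, against 35.6, 29.1 and 31.1 CPM with SW-113. The lowest SW-138 value exceeded the highest SW-113 value by little. ITGB3 had a log2 fold change of 0.38 (SE 0.088, interval 0.18 to 0.57, edgeR Benjamini-Hochberg adjusted p = 0.0304). Of the 100-base stretches of its longest transcript, 55.6% also occur in AC068234.1, which is listed at 0 in all 6 libraries.

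ITGAV had 207, 204 and 208 CPM with SW-138, against 197, 202 and 198 CPM with SW-113, which gave a log2 fold change of 0.05 (95% interval -0.04 to 0.14) that did not pass. ITGB1, the common beta chain, had 2416, 2132 and 2257 CPM with SW-138, against 2065, 1982 and 2035 CPM with SW-113. The ITGB1 groups did not overlap, yet its log2 fold change of 0.16 did not pass either (edgeR Benjamini-Hochberg adjusted p = 0.134). It passed with DESeq2 (adjusted p = 0.0492) and with library totals alone (edgeR adjusted p = 0.0475), and its adjusted p over all alternatives ran from 0.0475 to 0.30. Of the ITGB1 stretches of 100 bases, 13.8% also occur in AC022149.1, which has 0, 312 and 380.1 expected counts with SW-138, against 379, 1069 and 459 with SW-113. The ratio of ITGB5 to ITGB8 CPM was 38.0, 30.0 and 41.1 with SW-138, against 16.9, 14.4 and 16.1 with SW-113. Since ITGB5 was called higher and ITGB8 lower, the ratio restates those calls. ITGB1 made up 82.4 ± 0.56% of the summed CPM of the 6 beta chains with SW-138 and 83.7 ± 0.48% with SW-113 (SD, n = 3 each).

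**Figure D3:**
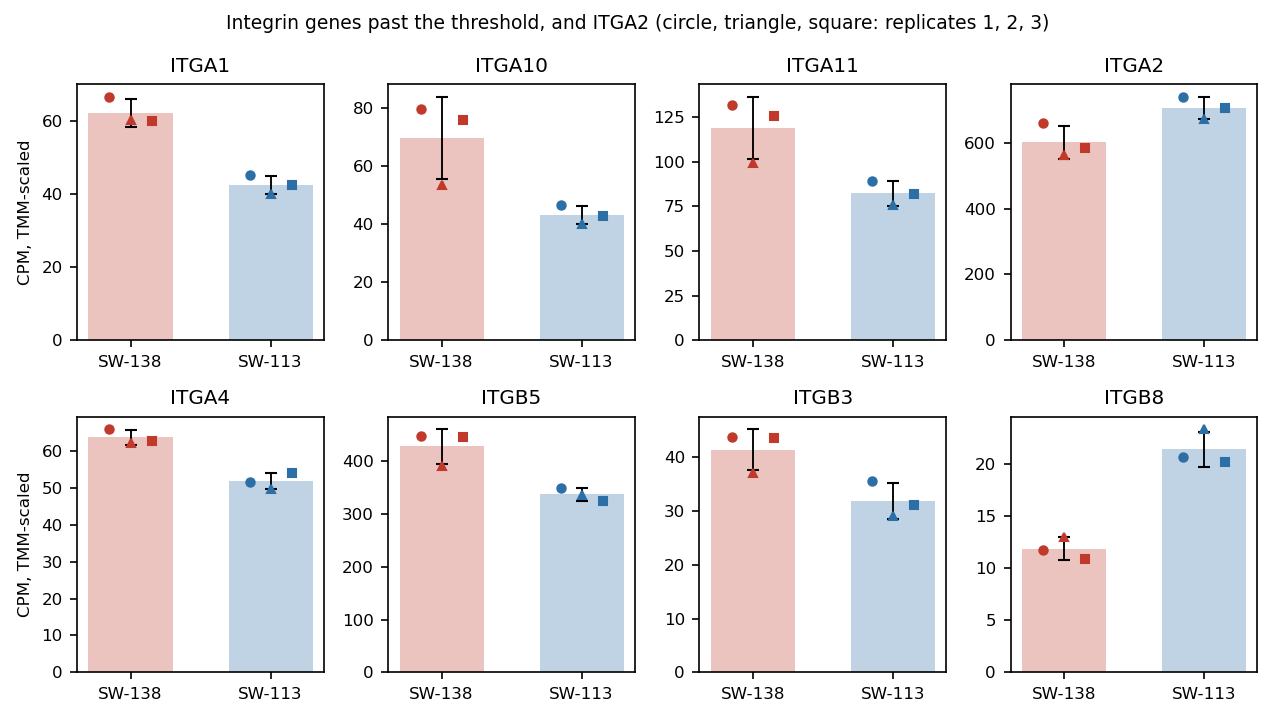
Level of the 7 integrins past the threshold and of ITGA2 in each library, in CPM, 1 panel a gene, with SW-138 to the left of SW-113; bars are group means, error bars the SD of 3 libraries, and circles, triangles and squares replicates 1, 2 and 3. ITGB8 averages 11.9 with SW-138 and 21.4 with SW-113, ITGA2 did not pass, and the other 6 are higher with SW-138.

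ITGA4 was the seventh integrin past the threshold. It encodes the alpha chain that with beta 1 binds VCAM1 and fibronectin. ITGA4 (chr2:181457202-181536187, plus strand) had 65.9, 62.2 and 62.7 CPM with SW-138, against 51.7, 49.7 and 54.0 CPM with SW-113. Each group spanned under 5 CPM and the groups were apart. The log2 fold change was 0.30 (SE 0.053, interval 0.18 to 0.42, edgeR Benjamini-Hochberg adjusted p = 0.0107).

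The laminin-binding alpha chains did not pass. ITGA3, the most abundant alpha chain, had 1680.7, 1215 and 1623 CPM with SW-138, against 1353, 1107 and 1219 CPM with SW-113, and the groups overlapped through replicate 2 of SW-138. Its log2 fold change was 0.30 (edgeR Benjamini-Hochberg adjusted p = 0.159), and 0.43, past the threshold, without that library. ITGA6 had 481, 409 and 448 CPM with SW-138, against 399, 327 and 424 CPM with SW-113, and these groups overlapped with a log2 fold change of 0.22. Both ITGA3 and ITGA6 passed with replicate number as a block and with genes kept at 1 count in 1 library. ITGA7, known from muscle, was under 1 CPM with a log2 fold change of 0.38. ITGA5, the fibronectin receptor chain, had 294, 222 and 294 CPM with SW-138, against 263, 219 and 248 CPM with SW-113, with overlapping groups and a log2 fold change of 0.15 (interval -0.09 to 0.38). ITGB4 (log2 fold change 0.09), which pairs with alpha 6, and the leukocyte chains ITGB2 (0.47) and ITGAX (-0.0023) were each under 3 CPM and did not pass.

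How many calls held varied with the library left out. ITGA1 and ITGB8 passed in all 6 fits that left out 1 library. ITGA4 was lost without SW-113 replicate 2, where its log2 fold change was 0.27 (edgeR Benjamini-Hochberg adjusted p = 0.0525). ITGA10, ITGA11 and ITGB5 were lost without SW-138 replicate 3, SW-113 replicate 2 or SW-113 replicate 3. In those fits their log2 fold changes were 0.63 to 0.69 for ITGA10, 0.48 to 0.53 for ITGA11 and 0.32 to 0.34 for ITGB5. ITGB3 was lost without any of these or SW-138 replicate 1, at 0.31 to 0.36. The largest edgeR adjusted p was 0.0687 for ITGA10, 0.0742 for ITGA11, 0.078 for ITGB5 and 0.135 for ITGB3, and no called gene changed sign. Without replicate 2 of SW-138, ITGA3 (0.43), ITGA5 (0.27) and ITGB2 (0.67) passed as well.

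**Figure D4:**
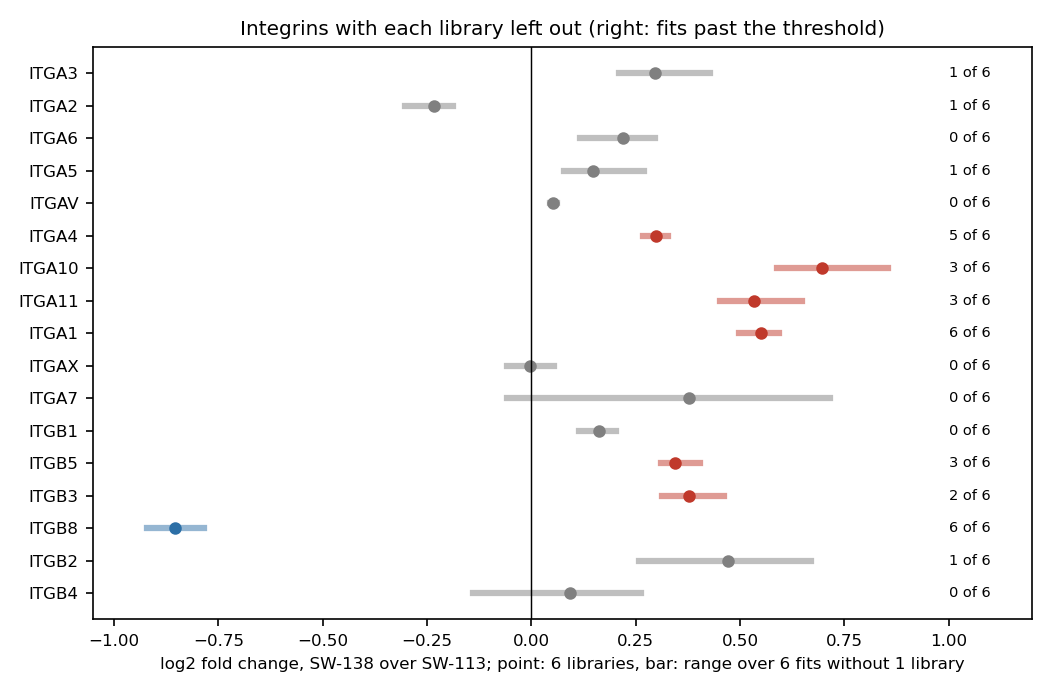
Log2 fold change of the 17 integrins, SW-138 over SW-113, with all 6 libraries (points) and its range over the 6 fits that leave out 1 library (bars), coloured where the gene passed with all libraries; the numbers at the right count the fits past the threshold. The bars run from -0.92 to -0.78 for ITGB8 and from 0.50 to 0.59 for ITGA1, both with 6 of 6 fits.

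Of the 9 cadherins, 0 passed in edgeR and 5 had an unadjusted p under 0.05, against 3773 of all 16905 genes tested. DESeq2 called 2 of the 7 to which it gave an adjusted p, and limma-voom called 0. CDH13 (T-cadherin, held in the membrane by a lipid anchor) and CDH2 (N-cadherin) made up 83.8 ± 0.84% of the summed cadherin CPM with SW-138 and 84.0 ± 0.76% with SW-113 (SD, n = 3 each). CDH13 had 359, 281 and 324 CPM with SW-138, against 306, 300.4 and 296 CPM with SW-113, with overlapping groups and a log2 fold change of 0.09. CDH2 (chr18:27950966-28177446, minus strand) had 156, 116 and 144 CPM with SW-138, against 118, 101 and 116 CPM with SW-113. Replicate 2 of SW-138 fell inside the SW-113 range, and the log2 fold change was 0.31 (SE 0.10, interval 0.09 to 0.54, edgeR Benjamini-Hochberg adjusted p = 0.0898). It passed with DESeq2 (adjusted p = 0.0103) and in edgeR without replicate 2 of SW-138 (log2 fold change 0.42). In edgeR it also passed with library totals alone, with genes kept at 1 count in 1 library and with replicate number as a block. Its adjusted p over all alternatives ran from 4.36e-05 to 0.276. CDH1 (E-cadherin), below the minimum, had 6 counts in all over the 6 libraries.

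CDH11, a mesenchymal cadherin also known from osteoblasts, had 48.6, 40.4 and 45.3 CPM with SW-138, against 45.1, 38.5 and 44.7 CPM with SW-113. Its groups overlapped, with a log2 fold change of 0.07. CDH4 (R-cadherin) had 14.9, 8.78 and 14.7 CPM with SW-138, against 9.53, 6.81 and 8.72 CPM with SW-113. Here too replicate 2 of SW-138 fell within the SW-113 range, with a log2 fold change of 0.62 and an edgeR Benjamini-Hochberg adjusted p of 0.0776. Without that library the log2 fold change was 0.83 and passed, as it did with DESeq2 and with library totals alone. CDH4 also passed with replicate number as a block and with genes kept at 1 count in 1 library. CDH24 had 23.7, 21.8 and 22.2 CPM with SW-138, against 19.7, 18.7 and 19.7 CPM with SW-113, apart but not past the threshold (log2 fold change 0.22, edgeR Benjamini-Hochberg adjusted p = 0.0622). CDH24 passed with library totals alone, among genes averaging at least 5 CPM and with the length and GC trends removed. It also passed with replicate number as a block. CDH7 and CDH10 did not overlap either, in the other direction. CDH7 had 2.23, 1.71 and 1.90 CPM with SW-138, against 2.67, 2.36 and 2.95 CPM with SW-113 (log2 fold change -0.44, edgeR Benjamini-Hochberg adjusted p = 0.161). CDH10 had 0.407, 0.296 and 0.217 CPM with SW-138, against 0.831, 0.484 and 0.860 CPM with SW-113, which gave a log2 fold change of -1.21 (interval -2.07 to -0.35, edgeR Benjamini-Hochberg adjusted p = 0.0839). CDH8 (log2 fold change 0.29) and CDH12 (-0.26) had overlapping groups.

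The 23 gamma protocadherin members gave 0 calls in edgeR, and 4 had an unadjusted p under 0.05, against 3773 of all 16905 genes tested. DESeq2 called 1 (PCDHGC5) of the 14 to which it gave an adjusted p, and limma-voom called 0. Of the 23 log2 fold changes 16 were positive and 7 negative, from -0.34 for PCDHGA3 to 0.61 for PCDHGA9, with a median of 0.16. In 7 (PCDHGA2, PCDHGA8, PCDHGA9, PCDHGA11, PCDHGB5, PCDHGB6 and PCDHGC4), or 30.4% of the cluster, all SW-138 values lay above all SW-113 values, as they did in 12.4% of all genes tested. PCDHGC3, which is a C-type gene, lying after the A and B genes of the cluster, made up 74.7 ± 1.60% of the cluster's CPM with SW-138 and 73.1 ± 1.08% with SW-113 (SD, n = 3 each). PCDHGC3 (chr5:141475947-141512979, plus strand) had 268, 185 and 252 CPM with SW-138, against 209.6, 177 and 192 CPM with SW-113. Replicate 2 of SW-138 was again inside the SW-113 range, and the log2 fold change was 0.28 (SE 0.12, interval 0.02 to 0.55, edgeR Benjamini-Hochberg adjusted p = 0.19). Without that library it was 0.43 and passed. PCDHGC5 had 9.81, 5.16 and 7.30 CPM with SW-138, against 5.43, 4.64 and 5.02 CPM with SW-113, with the lowest SW-138 value, that of replicate 2, inside the SW-113 range. Its log2 fold change of 0.57 did not pass (edgeR Benjamini-Hochberg adjusted p = 0.111), and without that library it was 0.77 and passed.

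Reads of the gamma genes cannot be told apart in full, because their transcripts end in the same constant exons. The median member shares 46.2% of its 100-base stretches with other genes, and 22 of the 23 have counts that are not whole. The summed cluster does not depend on how reads were divided among its members: it had 359, 253 and 330.1 CPM with SW-138, against 287, 246 and 259 CPM with SW-113, and the groups overlapped.

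**Figure D5:**
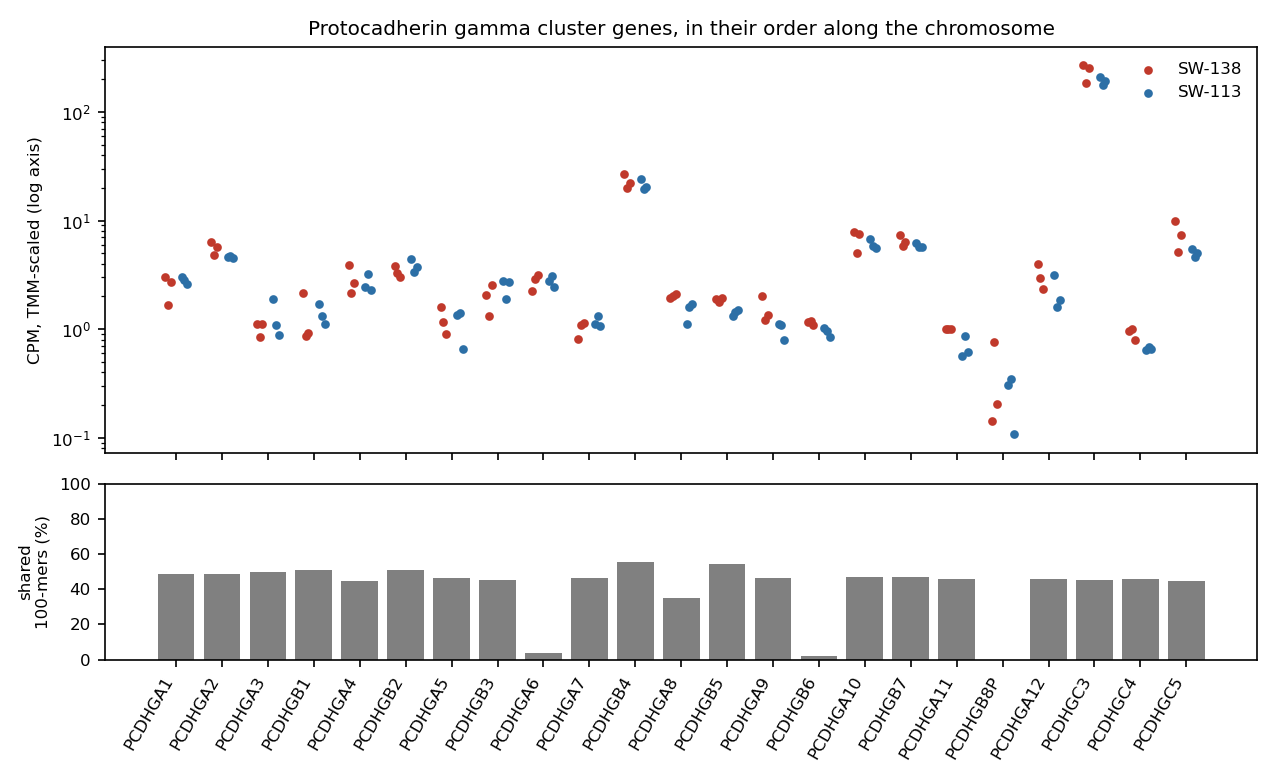
Level of each of the 23 gamma cluster members in each library, in CPM on a log axis, in order along the chromosome, with SW-138 to the left of SW-113; PCDHGC3 stands far above the others, followed by PCDHGB4 at 19.7 to 26.5 CPM. The lower panel gives the percentage of each longest transcript's 100-base stretches that also occur in another gene, at most 55.3%.

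The letters CGCTGT are known from clustered protocadherin promoters as part of a conserved element; they were searched for after the windows had been seen. They occur in 17 of the 20 gamma members with a RefSeq window, on the gene's own strand in all 17, against 11.2% of all 35116 windows on either strand. Of the 11 integrin windows 2 held them, and of the other 18 members' windows 2. The stretches around the element are shown for PCDHGB4 and PCDHGB5, near-identical stretches of genes at different levels, and for PCDHGC3, the gene with the highest level of the cluster, with the element in capitals, on the plus strand of chromosome 5 in GRCh38.p14: chr5:141387615-141387650 for PCDHGB4, chr5:141397861-141397896 for PCDHGB5 and chr5:141475878-141475913 for PCDHGC3.
PCDHGB4: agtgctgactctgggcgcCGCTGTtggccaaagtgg
PCDHGB5: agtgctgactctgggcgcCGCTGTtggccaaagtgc
PCDHGC3: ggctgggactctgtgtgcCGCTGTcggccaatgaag
PCDHGB4 and PCDHGB5 are identical at 35 of these 36 bases, while their levels over the 6 libraries were 4.67 and 0.359 CPM per kilobase. PCDHGC3 was at 45.3 CPM per kilobase, and its stretch matches that of PCDHGB4 at 25 of 36 bases. PCDHGB4 had a log2 fold change of 0.10 and PCDHGB5 of 0.39, and neither passed. PCDHGB4 also shares 55.3% of its 100-base stretches with other genes, PCDHGA8 and PCDHGB5 among them. PCDHGB5 shares 54.4% and PCDHGC3 45.1%, so each of these levels is uncertain.

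Outside the gamma cluster, few protocadherins were expressed to any extent. PCDH1, known from epithelia, was the highest of the 9 non-clustered members, with 15.7, 11.1 and 14.7 CPM with SW-138, against 11.7, 10.9 and 11.0 CPM with SW-113. Its groups overlapped, and its log2 fold change of 0.31 did not pass (edgeR Benjamini-Hochberg adjusted p = 0.143). Without SW-138 replicate 2 it was 0.45 and passed. PCDH20 had 0.767, 1.01 and 1.33 CPM with SW-138, against 0.727, 0.343 and 0.467 CPM with SW-113, apart but near 1 CPM and not past the threshold (log2 fold change 1.02, interval 0.26 to 1.79, edgeR Benjamini-Hochberg adjusted p = 0.114). PCDH20 shares 95.7% of its 100-base stretches with AL592490.1, listed at 0 in all 6 libraries. PCDH7 (log2 fold change -0.07) and PCDH9 (-0.10) were at 1.9 to 3.1 CPM with overlapping groups. PCDH12, PCDH17 and PCDH18 were near or under 1 CPM and did not pass, and PCDH11X and PCDH11Y share 33.8% and 34.7% of their stretches with each other, so their levels are uncertain. PCDHA4 was the 1 alpha cluster member and had a log2 fold change of 0.26. PCDHB5 (log2 fold change -0.28), PCDHB7 (0.73) and PCDHB15 (-0.17) were each under 1 CPM, with overlapping groups.

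Proteins that bind integrin tails inside the cell were read from the same fit. Of 34 tested integrin-binding cytoplasmic proteins, 1 was higher with SW-138, 6 were lower and 27 did not pass, with a median log2 fold change of 0.0072. Over all genes tested, 2.76% were called higher and 4.06% lower. Lower calls outnumber higher ones there too, but 6 of 34 is a larger share than 4.06%. Among genes averaging at least 5 CPM, 1257 of 10898 were called in either direction. In the list 15 had an unadjusted p under 0.05, against 3773 of all 16905 genes tested, and DESeq2 called 9 and limma-voom 7. The list was not tested as a set. BCAR1, a scaffold phosphorylated on adhesion, averaged 75.9 ± 2.75 CPM in SW-138 libraries and 92.1 ± 0.17 CPM in SW-113 libraries (SD, n = 3 each), which gave a log2 fold change of -0.28 (adjusted p = 0.00932, edgeR with Benjamini-Hochberg). ITGB1BP1, which binds the tail of beta 1, averaged 33.8 ± 1.98 CPM in SW-138 libraries and 41.8 ± 0.71 CPM in SW-113 libraries (log2 fold change -0.31, edgeR Benjamini-Hochberg adjusted p = 0.0127). CIB1, a calcium-binding partner of integrin tails, averaged 29.6 ± 0.79 CPM in SW-138 libraries and 36.5 ± 1.93 CPM in SW-113 libraries (log2 fold change -0.31, edgeR Benjamini-Hochberg adjusted p = 0.0143). ILK, an adaptor at integrin tails, averaged 72.6 ± 4.18 CPM in SW-138 libraries and 86.1 ± 3.11 CPM in SW-113 libraries, which gave a log2 fold change of -0.25 with an edgeR Benjamini-Hochberg adjusted p of 0.0293. These calls did not all hold with 1 library left out. BCAR1 was lost without SW-113 replicate 3 (adjusted p = 0.0559, edgeR), where its log2 fold change was still -0.28. ITGB1BP1 was lost in every fit but that without SW-138 replicate 2 (edgeR adjusted p = 0.053 to 0.0581). CIB1 was lost without replicates 1 or 3 of SW-138 or 2 or 3 of SW-113 (0.0509 to 0.0667). ILK was lost in every such fit but that without SW-138 replicate 2 (edgeR adjusted p = 0.0614 to 0.136), and also with library totals alone (0.0753) and with the length and GC trends removed (0.0551). The other lower genes were ZYX and KANK1, and the 1 higher was DAB2 (log2 fold change 0.28), an endocytic adaptor; these 3 were named after their values were seen.

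Of 10 membrane partners, CD47, which associates with beta 3 integrins, was the 1 that passed, at 91.1 ± 6.71 CPM in SW-138 libraries and 74.5 ± 2.56 CPM in SW-113 libraries (SD, n = 3 each; log2 fold change 0.29, edgeR Benjamini-Hochberg adjusted p = 0.0202). The CD47 call was lost without SW-138 replicate 1 or any 1 of the SW-113 libraries (edgeR adjusted p = 0.0676 to 0.0913). Over all genes tested 6.82% were called, so 0 or 1 calls in a list of this size are near that share. Of 13 tested catenins and cadherin partners 0 passed in edgeR, 3 had an unadjusted p under 0.05, and both DESeq2 and limma-voom called 0. Of all 16905 genes tested, 3773 had an unadjusted p under 0.05. CTNNB1, beta-catenin, averaged 761 ± 5.6 CPM in SW-138 libraries and 736 ± 24.1 CPM in SW-113 libraries. Of 16 proteins acting on protocadherin promoters, such as CTCF and cohesin subunits, 0 passed in edgeR, 2 had an unadjusted p under 0.05, and both DESeq2 and limma-voom called 0. CTCF averaged 49.8 ± 1.83 CPM in SW-138 libraries and 53.0 ± 1.85 CPM in SW-113 libraries.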

How the data were processed

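RNA of 6 HT1080 libraries, 3 per compound, was measured after ribosomal RNA depletion. The authors deposited 1 table of expected counts per gene, which need not be whole. Named in the submitters' processing notes, without role or order, are the build GRCh38 and the tools RSEM 1.3.3, DESeq2 1.42.0, Trimmomatic 0.39 and Bowtie2 2.5.4. The annotation version and strand setting are not given in the sources used here, so reads of genes overlapping on opposite strands may not be separated, and reads shared by similar genes were divided by estimation. Gene positions come from GENCODE release 29 (GRCh38) and promoter windows from RefSeq, which held 49 of the 62 members.

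Counts were rounded, and filterByExpr in edgeR 4.0.16 kept 16905 of 60675 genes, among them all 62 members. SW-138 was compared with SW-113 by edgeR's quasi-likelihood test in R 4.3.3 with TMM factors (0.976 to 1.03), no block, and p-values adjusted over all genes tested by Benjamini-Hochberg at 0.05. Standard errors came from limma-voom (limma 3.58.1), and the 95% intervals were centred on the edgeR estimates. The median standard error was 0.092 on the log2 scale, which limits precision with 3 libraries per compound. The scripts were tested on simulated data as a check of the code. How well changes as small as those called are recovered is not given here. CPM used TMM-scaled totals, and levels per kilobase the longest GENCODE transcript.

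Members and lists were chosen with earlier results of these data known. Named were all members past the threshold, the 3 highest per kilobase in each family, CDH1, CDH2, ITGB1, ITGAV and ITGA5, and up to 4 passing genes with the smallest p in each other list; further members are named for completeness after their values were seen. Alternatives changed the scaling, the filter, the tool (DESeq2 1.42.0, limma-voom), the replicate block, the members' minimum and the libraries kept.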

Additional observations from a re-analysis of the deposited data

How the results depend on the processing

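With 3 libraries per compound, many calls changed when 1 library was left out. The count of called members moved from 7 to 11 with library totals alone, to 17 with genes kept at 1 count in 1 library and to 12 with DESeq2 (of 41 members it gave an adjusted p), and ran from 2 to 15 with 1 library left out. Over all genes the count of 1153 became 2060 with genes kept at 1 count and ran from 303 to 1616 with 1 library left out. The members' median log2 fold change stayed positive under all 15 alternatives to the fit, at 0.16 to 0.29. Under DESeq2 or upper-quartile factors and under limma-voom, 7 members were called, 6 higher and 1 lower. Requiring 600 counts or more, or leaving out the alpha and gamma clusters or the pseudogene, only selects members from the same fit. These choices remove no called member, so the count of 7 could not change and they do not test it. Of the cadherins and protocadherins, CDH2, CDH4, CDH10, PCDH1, PCDH20, PCDHGC3 and PCDHGC5 passed with genes kept at 1 count. The cause of these changes was not tested.

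Libraries share replicate numbers across the compounds, but the labels give the numbers no meaning. Deviations of same-numbered libraries correlated at 0.12, 0.32 and 0.065, and 3 of 6 libraries correlated best with their own number. Replicate 1 of SW-138 correlated at 0.16 with replicate 3 of SW-113. Replicate 3 of SW-138 correlated at 0.092 with replicate 1 of SW-113. Replicate 2 libraries correlated at -0.26 to -0.15 with libraries of other numbers in the other compound. Of 24 members at 5 CPM or more, 18 were lowest in replicate 2 of both compounds. The numbers were not taken as pairs in the main fit, but an effect shared by replicate 2 was not tested. With the replicate block, 17 members (14 higher, 3 lower) and 2363 genes were called.

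Among the 31 named genes and 15 alternatives, 387 of the values kept direction and side of the threshold, 35 lost the threshold, 25 gained it and 8 turned sign, each of the 8 in a gene that did not pass. ITGAV was at -0.0018 with the length and GC trends removed. With 1 library left out, log2 fold changes ran from -0.0045 to 0.14 for CDH11, from -0.20 to 0.056 for PCDH7, from -0.11 to 0.49 for PCDHA4, from -0.38 to 0.12 for PCDHB15, from -0.92 to 0.13 for PCDHB5 and from -0.027 to 0.19 for PCDHGB4.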

Other observations

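Of 18 tested genes of the wider cadherin superfamily, 0 passed in edgeR, 4 had an unadjusted p under 0.05, DESeq2 called 1 and limma-voom 0. Of all 16905 genes tested, 3773 had an unadjusted p under 0.05. Since 6.82% of all genes tested were called, few calls would fall in a list of this size. FAT1, a giant cadherin, averaged 381 ± 19.1 CPM in SW-138 libraries and 400 ± 24.7 CPM in SW-113 libraries (SD, n = 3 each). DSG2, a desmosomal cadherin, averaged 105 ± 9.42 CPM in SW-138 libraries and 97.7 ± 1.38 CPM in SW-113 libraries. DCHS1, a ligand of FAT4, came closest to the threshold, at 2.91 ± 0.54 CPM in SW-138 libraries and 1.82 ± 0.20 CPM in SW-113 libraries (log2 fold change 0.68, edgeR Benjamini-Hochberg adjusted p = 0.0545). These 3 were named after their values were seen. Of 5 integrin names outside the name rule, 2 were tested and 0 passed in edgeR, 0 had an unadjusted p under 0.05, and both DESeq2 and limma-voom called 0.

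Most markers of other cell types were near 0. Of 8 endothelial markers 7 averaged under 1 CPM, and the list summed to 89.4 to 124 CPM in SW-138 libraries and 87 to 105 CPM in SW-113 libraries, mostly from TIE1. Of 9 blood markers 7 averaged under 1 CPM, and the list summed to 76.0 to 95.9 CPM in SW-138 libraries and 90.8 to 97.0 CPM in SW-113 libraries, mostly from CD68. The 6 neural markers summed to 2.32 to 2.40 CPM in SW-138 libraries and 2.01 to 2.78 CPM in SW-113 libraries.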
